A study of Mus musculus with 2 samples.

Results

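The TLE genes encode the mouse counterparts of Groucho, a family of transcriptional corepressors. All 6 genes of the family list, Tle1 to Tle6, had a value on both arrays, out of 13506 genes measured that way, and each was read by 1 probe. The members were chosen by name, through the gene symbol of the platform annotation updated to the current symbol. The probe of Tle5 carries the older symbol Aes, and the other 5 symbols were current.

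Colon26 is a mouse colon carcinoma line. The cells were grown in culture and injected beneath the rectal mucosa of Balb/c mice, and total RNA was taken from the primary tumours that grew there and from the metastases that formed in the liver. No genetic change, drug, time point or age is named in the labels, and both tissues come from the same line. No sorting step is named, so RNA of host cells may be present in either tissue. Each of 2 arrays held 1 primary tumour, labelled with Cy5, and 1 liver metastasis, labelled with Cy3, from independently grown material.

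A value is the log ratio of the 2 dyes and is taken here as log2. Which dye is in the numerator is not given in the sources used here. If it is Cy5, a positive value stands for more RNA in the primary tumour, and if it is Cy3, for more RNA in the metastasis. Values are therefore described as lying on the positive or the negative side, which holds in either case. Both arrays have the dyes in the same orientation, so a dye preference of a single probe and a difference between the tissues cannot be told apart. In bulk RNA of this kind, fewer cells of a type and less RNA per cell cannot be told apart either.

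Groucho and TLE proteins do not bind DNA by themselves. Transcription factors such as HES, RUNX and TCF/LEF proteins recruit them to target genes, where they oligomerise through their amino-terminal Q domain, hold histone deacetylases and keep transcription low. Tle1 to Tle4 encode full-length corepressors with a carboxy-terminal WD40 propeller that grips the recruiting factors. Tle5, the amino-terminal enhancer of split, lacks that propeller and acts as a regulator of the long forms. It has been studied as an inhibitor of Notch-driven transcription in the spread of colon cancer. Tle6 is the most divergent member and is best known from the oocyte, where its protein belongs to the subcortical maternal complex.

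The 6 genes did not lie on a common side. Tle4 and Tle5 were negative on both arrays, Tle6, Tle1 and Tle2 were positive on both, and Tle3 changed sign. Over all genes, 38.2% were negative on both arrays and 33.9% positive on both. The means of the family ran from -0.48 to 0.56 with a median of 0.04, against a median of -0.02 over all genes. None of the 6 passed an adjusted p of 0.05 in limma's moderated test, where 391 of 13506 genes passed, a background of 2.9%. Of these, 286 were positive (2.12%) and 105 negative (0.777%). An unadjusted p under 0.05 was met by 2 members, Tle4 and Tle6, while 27.5% of all genes met it.

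**Figure D1:**
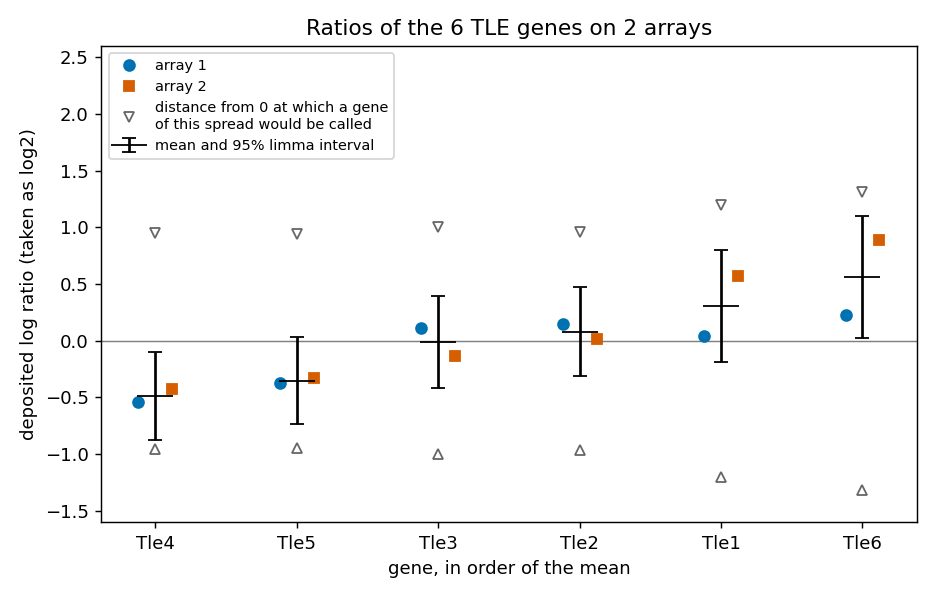
Deposited log ratio, taken as log2, of the 6 TLE genes in order of their mean. Circles and squares are arrays 1 and 2, the horizontal tick with its bar is the mean with the 95% limma interval, and open triangles mark the distance from 0 at which a gene of that spread would have passed the adjusted threshold. Tle4 and Tle5 sit below 0 on both arrays, Tle6 is the highest on both, and every mean lies inside its triangles.

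Tle5, the short family member, had a log ratio of -0.37 on array 1 and -0.33 on array 2. Both arrays thus put it on the negative side and differed by 0.04, and only 8.83% of all genes had a smaller difference between arrays. The mean was -0.35 ± 0.03 (SD, n = 2), or 1.27-fold with base 2. The 95% limma interval ran from -0.74 to 0.03 and the adjusted p was 0.208, so the ratio was not separated from 0 by this test. The interval reached a 1.66-fold ratio on its far side. With its moderated standard error, Tle5 would have had to lie 0.94 from 0, or 1.92-fold, to be called. In the order of all genes, 18.2% had a lower mean than Tle5.

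Tle4, a full-length corepressor, was the lowest of the family on both arrays, with -0.54 on array 1 and -0.43 on array 2. Its mean was -0.48 ± 0.08 (SD, n = 2), which is 1.40-fold with base 2. The 95% limma interval, from -0.87 to -0.09, left out 0, but the adjusted p over all genes was 0.132. Only 9.51% of all genes had a lower mean. Tle4 lay below Tle5 by 0.17 on array 1 and by 0.10 on array 2.

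Tle3, also a full-length corepressor, had 0.11 on array 1 and -0.13 on array 2. The arrays disagreed in sign and the mean was -0.01 ± 0.17 (SD, n = 2), near the middle of all genes. Its 95% limma interval ran from -0.42 to 0.40 and the adjusted p was 0.971. These data therefore leave room for a ratio of up to 1.34-fold, if the base is 2, on one side or the other.

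Tle2 had 0.15 on array 1 and 0.01 on array 2, both just above 0. The mean was 0.08 ± 0.10 (SD, n = 2), its 95% limma interval ran from -0.31 to 0.47, and the adjusted p was 0.752. Like the ratio of Tle3, that of Tle2 was smaller than its own interval on each side.

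Tle1, the remaining full-length corepressor, had 0.04 on array 1 and 0.57 on array 2. Its positive mean of 0.31 ± 0.38 (SD, n = 2) came nearly all from array 2. The 95% limma interval ran from -0.18 to 0.80, and the adjusted p was 0.341. A difference of 0.53 between the arrays was larger than that of 80.8% of all genes.

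Tle6, the divergent member, had 0.23 on array 1 and 0.89 on array 2, the highest of the family on both. The mean was 0.56 ± 0.47 (SD, n = 2), or 1.47-fold if the base is 2, and 88.8% of all genes had a lower mean. Its 95% limma interval of 0.02 to 1.10 ended just above 0, and the adjusted p over all genes was 0.172. The arrays differed by 0.66, which is the widest gap among the 6 genes and wider than that of 87.0% of all genes. If the base is 2, the ratio was 1.17-fold on array 1 and 1.85-fold on array 2.

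Ordered by mean, the family ran Tle4, Tle5, Tle3, Tle2, Tle1 and Tle6. Tle4, Tle5 and Tle6 kept their places on both arrays, while Tle1, Tle2 and Tle3 exchanged places. The values of Tle4 and Tle5 did not overlap, nor did those of Tle5 and Tle3, whereas neighbours among Tle3, Tle2, Tle1 and Tle6 overlapped. Tle5 lay below Tle3 by 0.48 and 0.20, below Tle2 by 0.52 and 0.34, and below Tle1 by 0.41 and 0.90, on arrays 1 and 2. The distance between the ends of the family, Tle4 and Tle6, was 0.77 on array 1 and 1.32 on array 2. The differences between members were not tested.

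**Figure D2:**
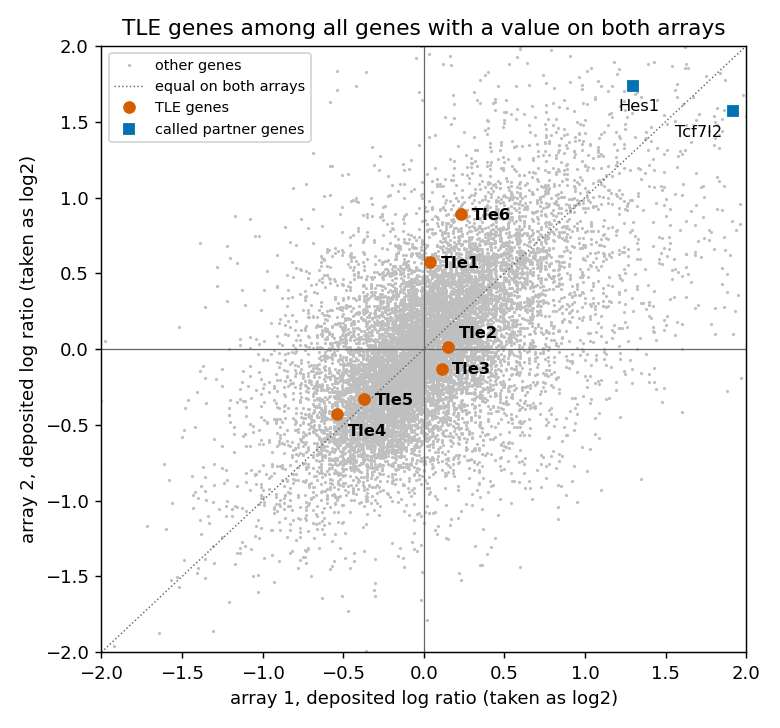
Log ratio, taken as log2, of each gene on array 1 (horizontal) and array 2 (vertical), with the 6 TLE genes in orange, the called partner genes Hes1 and Tcf7l2 in blue, all others in grey and the dotted line marking equal values. Both axes stop at 2, which leaves out 136 genes. Tle4 and Tle5 lie close to the line in the lower left, and Tle1 and Tle6 lie above it.

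Many genes shared the pattern of each member, as only 2 values define it. Within a distance of 0.1 in the plane of the 2 arrays lay 380 genes around Tle5 (2.81% of the others), 180 around Tle4 and 38 around Tle6. The nearest to Tle5 were Serpinb6c, Calcoco2, Gfra1, Ankrd27 and Glrx5, at distances from 0.00065 to 0.0104. The nearest to Tle4 were Pafah1b2, Ap2a1, Olfr168, Cpne6 and Plxnd1, at 0.0012 to 0.0188.

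Tle5, Tle2 and Tle6 are consecutive protein-coding genes on mouse chromosome 10 in RefSeq. The models of Tle2 and Tle6 overlap, and which part of either gene the probes read is not given in the sources used here. Despite that proximity the 3 genes had means of -0.35, 0.08 and 0.56. On the side of Tle5, Gna11 and Gna15, alpha subunits of heterotrimeric G proteins, had means of 0.15 ± 0.23 and 0.51 ± 0.53 (SD, n = 2). Next to them S1pr4, a receptor for sphingosine 1-phosphate, had 2.29 on array 1 and 0.83 on array 2, and an adjusted p, in limma's test, of 0.0866. Beyond Tle6, the deacetylase gene Sirt6 had -0.17 ± 0.02. Tle5 was the lowest of these 7 genes on both arrays. Around all 6 members, 19 other neighbouring genes were measured. Among them 9 were positive on both arrays (33.9% of all genes were) and 7 negative on both (38.2% of all genes). Limma called 1 (2.9% of all genes), Cdk5rap2 near Tle1 (1.22 ± 0.39, adjusted p = 0.0492). The unadjusted p was under 0.05 for 7 of the 19 (27.5% of all genes). Psat1, an enzyme of serine synthesis next to Tle4, had -1.03 ± 0.41 and an adjusted p, from the same test, of 0.0646.

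**Figure D3:**
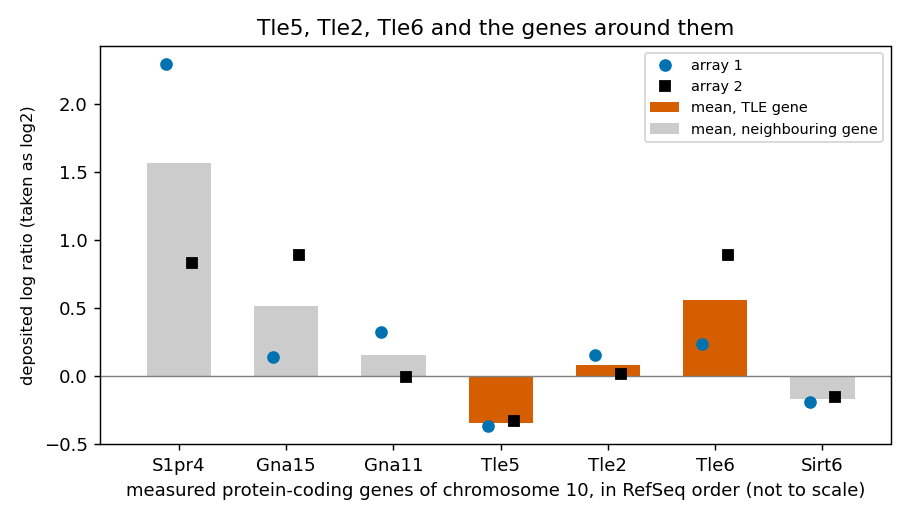
Log ratio, taken as log2, of Tle5, Tle2, Tle6 and the measured genes next to them on chromosome 10, in RefSeq order and not to scale. Bars are means of the 2 arrays, orange for TLE genes and grey for neighbours, and circles and squares are arrays 1 and 2. Tle5 is the lowest of the 7 genes and its neighbours Tle2 and Tle6 lie above 0.

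The sequences before the start sites are shown for Tle4 and Tle6, the lowest and the highest member, and for Tle3, the member nearest 0, because all 3 carry the same run of letters. RefSeq promoters of build GRCm38.p6 were matched for 5 members, which gave 7 start sites, and Tle5 was not matched. Each run below holds the 250 bases upstream of a start site, 5′ to 3′ on the strand of the gene. Capitals mark CCCACGTGGG and, in Tle6, a further CACGTG, the E-box bound by many basic helix-loop-helix factors. Tle3 lies at chr9:61372116-61372365 on the plus strand, Tle4 at chr19:14598184-14598433 on the minus strand and Tle6 at chr10:81600901-81601150 on the minus strand.
Tle4: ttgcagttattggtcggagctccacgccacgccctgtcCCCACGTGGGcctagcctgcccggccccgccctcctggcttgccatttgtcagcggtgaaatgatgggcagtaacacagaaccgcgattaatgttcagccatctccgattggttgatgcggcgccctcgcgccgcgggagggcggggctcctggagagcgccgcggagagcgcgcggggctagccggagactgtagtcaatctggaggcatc
Tle6: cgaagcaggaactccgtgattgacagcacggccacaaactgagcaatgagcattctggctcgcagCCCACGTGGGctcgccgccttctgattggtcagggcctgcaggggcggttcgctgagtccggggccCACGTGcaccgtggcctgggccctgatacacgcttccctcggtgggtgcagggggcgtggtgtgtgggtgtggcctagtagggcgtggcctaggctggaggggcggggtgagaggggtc
Tle3: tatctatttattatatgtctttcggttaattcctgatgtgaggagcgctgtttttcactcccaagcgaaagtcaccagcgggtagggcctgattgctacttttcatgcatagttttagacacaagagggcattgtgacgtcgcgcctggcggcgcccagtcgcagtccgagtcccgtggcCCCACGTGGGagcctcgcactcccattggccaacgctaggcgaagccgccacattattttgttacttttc

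The 10-base run begins 212 bases before the start site in Tle4, 185 in Tle6 and 70 in Tle3, and it reads the same on both strands. Tle4 and Tle6 each have a further start site in the table, whose promoter holds neither the run nor CACGTG. The run was taken as the longest around CACGTG that the 3 promoters shown share, after the sequences had been seen, so its presence in them is a description. Among 32851 promoters of the same length it occurred in 30 (0.0913%), from 29 genes. The core CACGTG occurred in 6.02% of all promoters. The 3 members with the run had a negative, a near-zero and a positive ratio, none of them called. Whether the run bears on the ratios was not tested. Of the other genes with the run, 11 were measured, with means from -0.13 to 0.60. Limma called none of them (2.9% of all genes), and 0 had an unadjusted p under 0.05 (27.5% of all genes). They included Lfng, a glycosyltransferase that modifies Notch receptors, at 0.60 ± 0.70 (SD, n = 2).

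Other motifs were searched on both strands of the same 250 bases. The RBPJ core TGGGAA and the TCF/LEF site CTTTGAT were in none of the 7 promoters, and in 21.6% and 3.21% of all promoters. CACNAG, the N-box of HES factors, was found in Tle2 and Tle3 and in 36.7% of all promoters, and CACGCG, a class C site, in Tle1 and in 7.62%. No CACGTG overlaps these matches in the members.

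Around the family stand 10 lists of partner genes with 113 members, of which 87 were measured. Limma called 2 of the 87 (2.30%, against 2.9% of all genes), both positive. The unadjusted p was under 0.05 for 24 genes, or 27.6%, close to the 27.5% of all genes. The median was -0.07. These shares lay near the background, and the lists as a whole gave no result of their own.

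**Figure D4:**
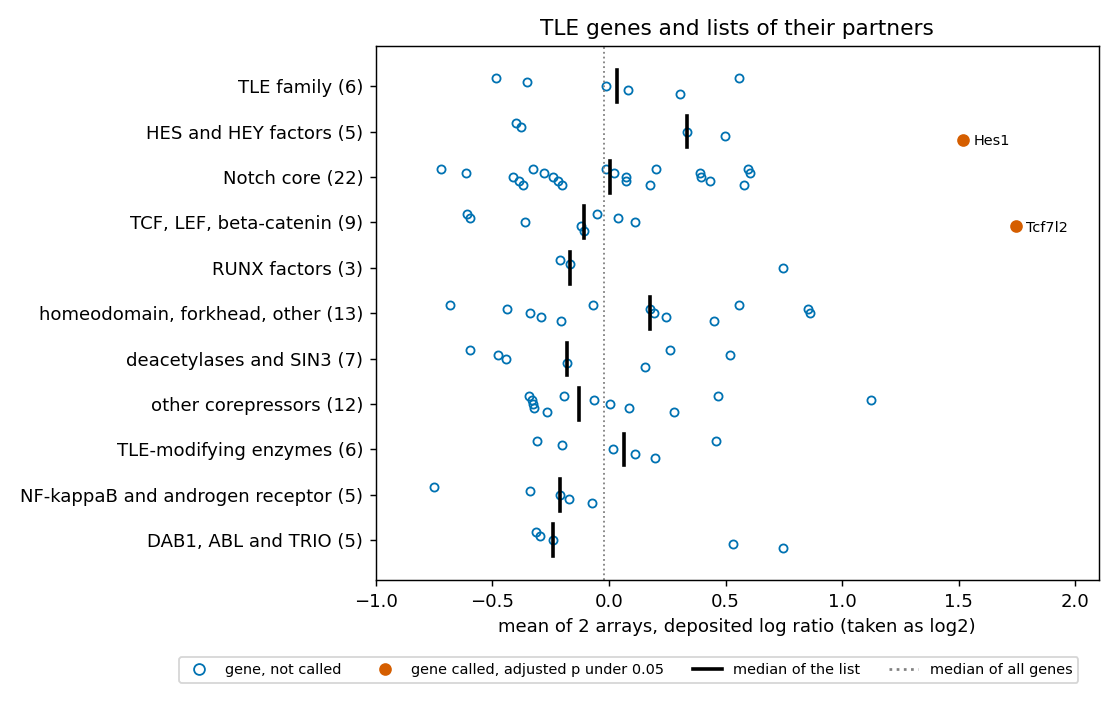
Mean of the 2 arrays, taken as log2, for each measured gene of the TLE family and of the 10 partner lists, with the number of genes in brackets. Open points were not called, filled points passed an adjusted p of 0.05, black bars are list medians and the dotted line is the median of all genes. Hes1 and Tcf7l2 stand apart on the positive side, and no other gene was called.

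The calls were 1 of 5 HES and HEY genes and 1 of 9 genes of the TCF, LEF and beta-catenin list (2.9% of all genes). Of the other recruiting factors, 0 of 3 RUNX genes and 0 of 13 homeodomain, forkhead and other factors were called. Hes1, a repressor induced by Notch that carries the WRPW tail read by the TLE propeller, had 1.30 on array 1 and 1.73 on array 2. It passed the threshold, with a mean of 1.52 ± 0.31 (SD, n = 2) and a limma adjusted p of 0.0365. Of 9 alternatives 5 gave the call again, but 1 of these, the natural-log reading, rescales all values alike and could not change it. In the other 4 the limma adjusted p was 0.053 after scaling, 0.0695 with quantile-normalized arrays, 0.0538 for a minimum fold of 1.2 and 0.472 if unmoderated. Hes1 was positive on both arrays and Tle5, which was not called, was negative on both, as were 38.2% of all genes. A link between these ratios was not tested. The other HES and HEY genes divided. Hey1 and Hes7 had 0.50 ± 0.54 and 0.33 ± 0.22, and Hes5 and Hes2 had -0.40 ± 0.09 and -0.38 ± 0.11, none of them called. The median of the 5 genes was 0.33.

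Tcf7l2, a factor that binds DNA with beta-catenin or with TLE proteins, had 1.92 on array 1 and 1.57 on array 2. Its mean was 1.74 ± 0.25 (SD, n = 2), with a limma adjusted p of 0.0283, and it was the other called partner. Of 9 alternatives 6 called it too, among them the natural-log reading, which could not change the call. Otherwise the limma adjusted p was 0.0548 after scaling, 0.0641 with quantile-normalized arrays and 0.464 if unmoderated. The related factors Tcf7 and Lef1 had 0.11 ± 0.03 and -0.12 ± 0.01, and Ctnnb1, beta-catenin itself, 0.04 ± 0.22. Bcl9, the adaptor that joins beta-catenin to Pygopus, had -0.60 on both arrays, and Ldb1, a scaffold of the same complex, had -0.61 ± 0.36. Limma called neither (adjusted p = 0.0972 and 0.130). Of the 9 measured genes of this list, 5 were negative on both arrays (38.2% of all genes were) and 2 positive on both (33.9% of all genes). The median was -0.11.

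Notch receptors and their machinery spread evenly. Of 22 measured genes, 9 were positive on both arrays (33.9% of all genes were) and another 9 negative on both (38.2% of all genes). None was called by limma (0 of 22, against 2.9% of all genes). For 5 the unadjusted p was under 0.05 (27.5% of all genes). The receptor Notch2 had 0.60 ± 0.04 (SD, n = 2) and the coactivator Maml3 0.58 ± 0.03, while Rbpj, the DNA-binding partner of Notch, had -0.61 ± 0.11. Runx1, a blood-lineage factor that also recruits TLE proteins, had 0.75 ± 0.22, with Runx2 at -0.21 ± 0.25 and their partner subunit Cbfb at -0.17 ± 0.07. None of these passed over all genes. Among 13 homeodomain, forkhead and other TLE-binding factors, Prdm1, a repressor that drives plasma cell differentiation, had 0.85 ± 0.36, Hesx1, a homeodomain repressor, 0.86 ± 0.63, and Pax2, a paired-box factor, -0.68 ± 0.03. None of the 13 was called by limma (0, against 2.9% of all genes), and for 4 the unadjusted p was under 0.05 (27.5% of all genes).

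The enzymes and scaffolds that work with TLE proteins on chromatin lay on both sides of 0. Of 7 measured deacetylase and SIN3 genes, 4 were negative on both arrays (38.2% of all genes were) and 2 positive on both (33.9% of all genes). The scaffold Sin3a had -0.60 ± 0.20 (SD, n = 2), the deacetylase Hdac3 -0.48 ± 0.16, and Sap18, a SIN3-associated protein, 0.52 ± 0.01. Of 12 other corepressors, 6 were negative on both arrays and 4 positive on both, beside the same 38.2% and 33.9% of all genes. Rcor1, the CoREST scaffold, lay farthest from 0 at 1.12 ± 0.38 with a limma adjusted p of 0.0554. Cir1 had 0.47 ± 0.14 and Gps2, a subunit of the NCoR complex, -0.32 ± 0.13. The corepressors Ctbp1 and Ctbp2 had -0.19 ± 0.17 and -0.27 ± 0.18. None of the 7 or the 12 genes was called by limma (0 and 0, against 2.9% of all genes). Unadjusted p-values under 0.05 were found for 3 and 2 of them (27.5% of all genes).

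Genes whose products modify or bind TLE proteins gave no call either. Xiap, a ubiquitin ligase that acts on TLE3, had 0.46 ± 0.29 (SD, n = 2), and Usp47, a deubiquitinase reported to act on the same protein, had -0.31 ± 0.13. Csnk2b, the regulatory subunit of casein kinase 2, had -0.20 ± 0.07. None of the 6 measured genes of this list was called by limma (0, against 2.9% of all genes). For 1 the unadjusted p was under 0.05 (27.5% of all genes). Of the NF-kappaB subunits, Nfkb2 had -0.75 ± 0.17, Relb -0.21 ± 0.13 and Rela, a reported partner of Tle5, -0.17 ± 0.08. Limma called 0 of the 5 genes in the list (2.9% of all genes). An unadjusted p-value under 0.05 was found for 1 (27.5% of all genes). Trio, a guanine nucleotide exchange factor, had 0.97 on array 1 and 0.53 on array 2, and Dab1, an adaptor studied as a Notch target in the spread of colon cancer, had 0.55 and 0.51. The kinase Abl1, which belongs to the same pathway, had -0.29 ± 0.06. The adjusted p in limma's test was 0.0910 for Trio, 0.115 for Dab1 and 0.266 for Abl1. None of the 5 genes in that list was called, and 2 had an unadjusted p under 0.05 (27.5% of all genes).

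Across all 13506 genes the SD of the ratios was 0.513 on array 1 and 0.551 on array 2, and 2 arrays limit the precision of each mean. Markers of other cells moved in part. Of 8 endothelial genes measured on both arrays, 7 were positive on both (33.9% of all genes were), with a median of 0.51. Flt1 and Robo4 were called, 2 of the 8 (2.9% of all genes), and the other 6 did not pass. The fibroblast gene Col1a1 (-2.93 ± 0.18, SD, n = 2) and the macrophage gene Cd14 (-1.20 ± 0.33) were the only calls of their lists, both negative. On both arrays 4 of 6 fibroblast and 3 of 4 macrophage genes were negative, as were 38.2% of all genes. Of the uncalled genes in these lists, Col1a2 had -0.24 ± 0.19, Col3a1 -0.40 ± 0.45, Pdgfra 0.19 ± 0.33 and Cd163 0.66 ± 0.38. Markers of the same lists with a value on 1 array only were mostly positive, with Itgam at 2.51, Adgre1 at 1.43 and Mrc1 at -0.27 for macrophages, and Lum at 1.39 and Dcn at 0.64 for fibroblasts. Limma called 0 of 10 hepatocyte, 0 of 5 B cell, 0 of 6 T cell and 0 of 8 colonic epithelium genes, with medians of 0.00, -0.01, 0.17 and -0.12. Unadjusted p-values under 0.05 were found for 3, 2, 2 and 2 of them (27.5% of all genes). Actb and Gapdh, often used as references, had -0.63 ± 0.11 and -0.31 ± 0.12, so the mean of Tle5 lay between theirs. The part of these shifts in the ratios of the TLE genes was not tested. With ratios alone, the level of a marker in one tissue is not known, so the labelled tissues could not be checked against their markers.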

How the data were processed

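The deposited table of 23473 probes gives 1 log ratio per probe and array, taken as log2. Per the labels' protocols, RNA was amplified with an amino-allyl kit. For scanner, background correction, spot filter, normalization, log base and numerator, the sources used here give nothing. No intensities entered. Of all probes, 16631 had 1 platform symbol, which was updated through RefSeq (GRCm38.p6: 12622 current, 3947 updated, 62 kept). A value on both arrays was present for 18837 probes, and those of them with a symbol were averaged to 13506 genes. limma 3.58.1 in R 4.3.3 (intercept, eBayes, 1 residual and 4.06 prior degrees of freedom) tested each gene's ratio against 0, with Benjamini-Hochberg adjustment over all genes at 0.05. The script was tested on simulated data. Figures used matplotlib 3.10.9.

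Members and lists were chosen with earlier results of these data known. Set for naming were all members and, per list, called genes and up to 3 with the largest value on the weaker array. The 5 genes nearest to Tle5 and Tle4, up to 3 neighbours a side, Actb and Gapdh were added. Of the neighbours and the cell type markers under this rule, only some are printed. Other partners, the promoter motifs and Lfng were chosen after their values were seen. Alternatives were 3 normalizations, 3 tests, a fit on probes, genes with 1 value, the natural log and each array alone.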

Additional observations from a re-analysis of the deposited data

How the results depend on the processing

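None of the 6 TLE genes was called in any of the 9 refitted alternatives. Of these, the natural-log reading rescales all values alike, so its adjusted p-values could not differ from the main fit. The lowest adjusted p in limma's fits was 0.191 for Tle5, 0.113 for Tle4 and 0.155 for Tle6, and the sides of Tle1, Tle2, Tle4, Tle5 and Tle6 were kept. The mean of Tle3 turned to 0.01 after centring and to 0.00 after scaling to equal spread. Without moderation, which leaves 1 residual degree of freedom, Tle5 was the only member with an unadjusted p under 0.05. Its adjusted p in that unmoderated test was 0.463, and the share of all genes at that cut is not given here. Tle4 and Tle6 met the unadjusted cut in the other alternatives, with 2 exceptions. Only Tle4 met it with quantile-normalized arrays, and no member did at the minimum fold of 1.2. In place of 391 of 13506 genes, limma called 51 after scaling, 4 with quantile-normalized arrays, 108 at a minimum fold of 1.2 and 0 without moderation. In 2 alternatives the tested set differed. The fit on probes called 238 of 18837 probes, with or without a symbol. With genes measured on 1 array added, 1041 of 14997 genes were called. Of the partner lists, 0 genes were called after scaling, quantile normalization or without moderation and 1, Tcf7l2, with the minimum fold. With genes measured on 1 array added to the fit, 3 partner genes were called in place of 2. Hes1 had limma adjusted p from 0.0365 to 0.472 and Tcf7l2 from 0.0283 to 0.464. The causes were not tested. A single array gives a value and no test. The fit is already paired by array, since each ratio sets the tumour against the metastasis of 1 array. No pairing by animal beyond the array itself entered the fit. Without signal over background, dim probes cannot be told from bright ones.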

Other observations

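Further genes of the lists had a value on 1 array only and entered no fit except the alternative that adds such genes. Hey2, a relative of the HES factors, had 0.40 on array 1, and Pygo2, a partner of Bcl9, had -0.91 on array 2. Among the markers, the endothelial gene Tie1 had 1.91 on array 1, and the hepatocyte genes Apoa1 and Hnf4a had 0.75 on array 1 and -0.65 on array 2.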
